A study of Saccharomyces cerevisiae with 18 samples.

Results

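The 105 probe sets described here measured transcripts of the cytosolic ribosomal proteins of Saccharomyces cerevisiae, out of 9335 probe sets on the array. They were taken by a rule on the annotation, and the rule was set with earlier results of these data known. A probe set was taken where the array annotation gave it exactly 1 gene and the symbol of that gene began with RPL or RPS and a digit, or was RPP0, RPP1A, RPP1B, RPP2A or RPP2B. The probe sets stood for 80 of the 137 ribosomal protein genes in the reference gene table, namely 42 of 76 genes of the large subunit, 33 of 56 of the small subunit and all 5 genes of the stalk. A further 54 genes were measured only on probe sets shared with another gene, and 3 had no probe set in the annotation. Of the 80 genes, 17 had no paralogue named A or B outside the stalk, and in 29 of 57 A and B pairs each member had its own probe set. The array design marked 28 of the probe sets as built on sequence shared within a gene family and 22 as built from an incomplete choice of unique probes. Signals of both kinds may include RNA of a near-identical copy and are uncertain as readings of a single gene, whereas the other 55 carried no such mark and are called plain here.

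The cytosolic ribosome is built from a large and a small subunit, each an RNA core that carries many proteins made in near-equal amounts. Most ribosomal protein genes of yeast are present as a pair of paralogues, A and B, left from an ancient duplication of the genome, and many contain an intron. They are among the most heavily transcribed genes of a growing cell, under Rap1, Fhl1, Ifh1 and Sfp1, and are turned down when the TOR and protein kinase A pathways are inactive. Rpd3, a histone deacetylase, and the amino-terminal histone tails that it deacetylates are known to act at many yeast promoters, those of ribosomal protein genes among them.

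RNA was read on 18 arrays of the Affymetrix YG_S98 design, 1 sample per array, from 8 genotypes. These were wild type (3 arrays), a deletion of RPD3 (2 arrays), histone H3 without residues 1 to 28 (H3 tail deletion, 2 arrays), H3 with lysines 4, 9, 14, 18, 23 and 27 replaced by glutamine (H3 lysine substitution, 3 arrays), histone H4 without residues 2 to 26 (H4 tail deletion, 2 arrays) and H4 with lysines 5, 8, 12 and 16 replaced by glutamine (H4 lysine substitution, 2 arrays). The remaining groups combined the RPD3 deletion with the H3 tail deletion (H3 double mutant, 2 arrays) or with the H4 lysine substitution (H4 double mutant, 2 arrays). Glutamine resembles an acetylated lysine, whereas a tail deletion removes the lysines with everything around them. Every genotype was 1 named strain, so that genotype and strain could not be told apart, and the labels say nothing of the growth medium. Nothing in the labels says that replicates were grown separately, so the p-values measure a spread between arrays that may be technical only.

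Signals are intensities in arbitrary units on a linear scale, comparable between arrays for 1 probe set but not between probe sets. The authors had brought all arrays to a common trimmed mean, so that every change is relative to the other transcripts of the same array, and in whole cultures a change per cell cannot be told apart from a change in the share of cells. Signals of RPD3 on the wild-type arrays were 1001, 959 and 689.7. The RPD3 deletion gave 25.8 and 9.4, the H3 double mutant 30.2 and 65 and the H4 double mutant 70.1 and 80.7, all under the floor of 140.2 below which signals were not read. Arrays of a group differed by a median of 0.157 to 0.363 on the log2 scale, and no array repeated another. The arrays came from 8 sampling days, and wild type shared a day only with the RPD3 deletion, the H3 tail deletion and the H3 double mutant. The ratio of the 3-prime to the 5-prime actin probe set, which rises as RNA degrades, ran from 1.371 to 1.414 over the wild-type arrays and from 1.193 to 1.854 over all 18. Headers of 3 arrays (array 2 in the H3 tail deletion, in the H4 tail deletion and in the H3 double mutant) named a strain other than that of their label, and that of wild-type array 3 named an amplification kit. Results without those 3 arrays are given beside the counts that they move.

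A probe set is called changed here where the Benjamini-Hochberg adjusted p of limma, taken over all 7851 tested probe sets of a contrast, was under 0.05. All 105 ribosomal protein probe sets were tested. Changes were most often decreases, most numerous in the H4 tail deletion and in the H3 double mutant. In at least 1 of the 7 mutants 33 probe sets (25 genes) were called, and 72 (55 genes with no called probe set) in none. The share of all tested probe sets called in at least 1 mutant is not given here. These totals are therefore not read as particular to ribosomal protein genes. The 33 include an RPS10B probe set whose call was set by the floor. In the RPD3 deletion 1 of 105 was called, higher, which was 0.952% against 15.4% of all tested probe sets (11.2% higher and 4.13% lower). In the H3 tail deletion 7 were called, all lower, or 6.67% against 13.6% of all. In the H3 lysine substitution 6 were called, all lower, or 5.71% against 25.5%. Of all tested probe sets, 2.98% were lower in the H3 tail deletion and 13.7% in the H3 lysine substitution.

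In the H4 tail deletion 25 of 105 were called, all lower, which was 23.8% against 27.3% of all probe sets called in either direction and 15.1% called lower. In the H4 lysine substitution 9 were called, all lower, or 8.57% against 25.1% of all, with 16.5% of all lower. In the H3 double mutant 19 were called lower and 2 higher, or 20.0% against 23.6% of all, with 8.13% of all lower. In the H4 double mutant 4 were called lower and 1 higher, or 4.76% against 24.5% of all, with 12.9% of all lower. In all 7 mutants the share of ribosomal protein probe sets called was under the share of all probe sets called in either direction, and the share called lower was above that of all probe sets in the H3 tail deletion, the H4 tail deletion and the H3 double mutant. The numbers of ribosomal protein probe sets at an unadjusted p under 0.05 were 8, 28, 17, 34, 18, 33 and 10 in the order in which the mutants are given here. All 7 contrasts share the 3 wild-type arrays, so the counts are not independent of each other. The lower counts of both lysine substitutions, the H4 tail deletion and both double mutants include an RPS10B probe set that stood above the floor in wild type alone.

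The number called depended on few arrays. Without the second array of the H4 tail deletion 8 of 105 were called there, and without the second array of the H3 double mutant 7 were called there. Without the 3 arrays whose headers name another strain the counts were 1 in the H3 tail deletion, 7 in the H4 tail deletion, 7 in the H3 double mutant, 11 in the H3 lysine substitution and 3 in the H4 double mutant. With the sampling day as a block, which could be fitted for 4 of the mutants, 1 was called in the H3 tail deletion, 7 in the H4 tail deletion, 9 in the H3 double mutant and 2 in the RPD3 deletion. That block sets the contrasts against wild-type array 1 alone, since arrays 2 and 3 were each the only array of their day. Among plain probe sets alone, 8 of 55 were lower in the H4 tail deletion, against 12 of the 28 family-marked ones. Of all tested probe sets 15.1% were lower there, so the share of the plain ones was no higher than that of all. The larger share lower over the 105 thus came from probe sets that are uncertain as readings of a single gene.

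**Figure D1:**
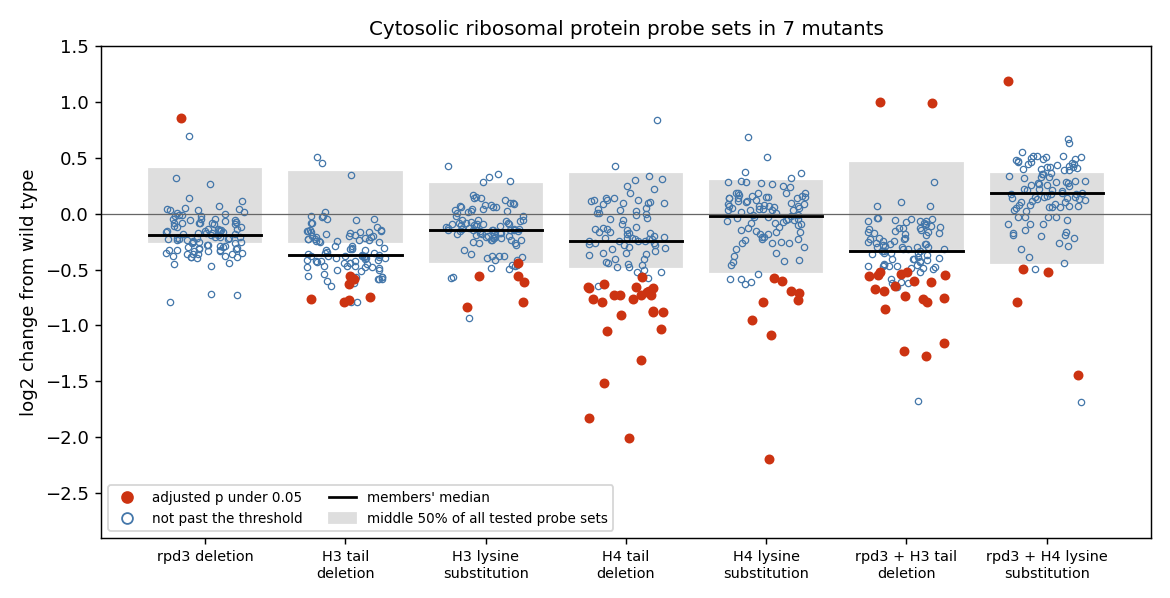
Log2 change against wild type (vertical axis) of each of the 105 ribosomal protein probe sets in the 7 mutants, with filled red points for called probe sets, a black line at the median of the 105 and a grey band over the middle 50% of all tested probe sets. All 25 called probe sets of the H4 tail deletion lie below 0, and the 4 called above 0 stand in the RPD3 deletion and the double mutants.

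As a body the ribosomal protein transcripts moved by less than single members did. The median signal of the 105 probe sets was 20020, 22320 and 28030 on the wild-type arrays, 21360 and 18040 in the RPD3 deletion, then 21030 and 15170 in the H3 tail deletion. It was 18440, 20790 and 26800 in the H3 lysine substitution, 18220 and 19490 in the H4 tail deletion and 26330 and 20800 in the H4 lysine substitution. It was 18900 and 16380 in the H3 double mutant and 26170 and 28160 in the H4 double mutant. Both arrays lay below all 3 wild-type arrays in the H4 tail deletion and likewise in the H3 double mutant, and the other 5 groups overlapped with wild type.

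The median log2 change over the 105 probe sets was -0.19 in the RPD3 deletion, -0.37 in the H3 tail deletion, -0.15 in the H3 lysine substitution, -0.25 in the H4 tail deletion, -0.02 in the H4 lysine substitution, -0.33 in the H3 double mutant and 0.18 in the H4 double mutant. Beside it, the median over all tested probe sets lay between -0.08 and 0.03. Arrays of 1 group differed in this median with a pooled standard deviation of 0.205, so that no group median stood more than about that spread from wild type except in the H3 tail deletion, the H4 tail deletion and the H3 double mutant. That reading moved with the actin ratio, which was 1.684 and 1.661 in the RPD3 deletion and 1.762 and 1.525 in the H3 double mutant. With the ratio as a covariate the median was -0.47 in the RPD3 deletion, past the spread, -0.591 in the H3 tail deletion and -0.558 in the H3 double mutant. The value of the H3 tail deletion rested on its second array, at -0.60 against -0.12 on the first. The actin ratio was 1.445 on that array and 1.854 on the first, and the part of RNA quality in the difference was not tested. Scaling the arrays to a common median in place of the trimmed mean moved the median over all probe sets by up to 0.14, from 0.03 to -0.11 in the H3 double mutant. The sign of the ribosomal protein median depended on scaling in the H4 mutants: in the H4 lysine substitution it was 0.13 after median centring and -0.18 after quantile normalisation, and in the H4 double mutant it was -0.07 after quantile normalisation.

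**Figure D2:**
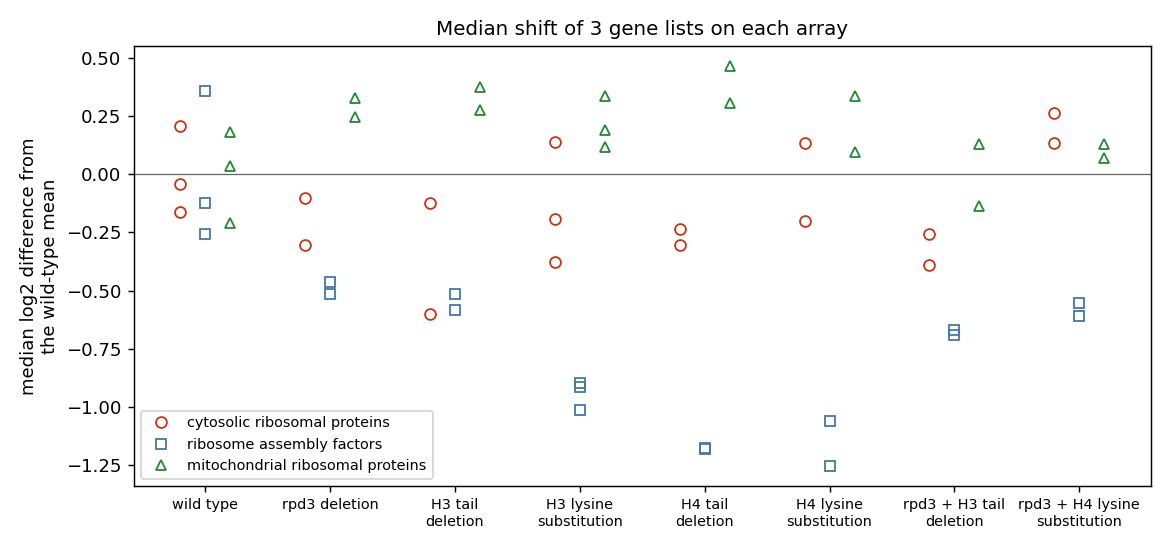
Median log2 difference from the wild-type mean (vertical axis) on each of the 18 arrays, by genotype, for the ribosomal protein probe sets, the ribosome assembly factors and the mitochondrial ribosomal proteins. Ribosomal protein medians stay between -0.601 and 0.264, whereas assembly factor medians fall to -1.252 on an array of the H4 lysine substitution.

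Among large-subunit proteins, RPL22B was lower in the H4 tail deletion and in the H3 double mutant under every alternative tried. It encodes the B copy of Rpl22, a protein of the surface of the large subunit that yeast can grow without. Its signals were 7777, 8666 and 5595 in wild type and 2500.3 and 2542 in the H4 tail deletion. Both mutant arrays lay far below every wild-type array, a log2 change of -1.52 ± 0.22 (adjusted p = 0.000273), or 2.87-fold lower. The signals of the H3 double mutant, 3854 and 2463, were again below every wild-type array, with a log2 change of -1.23 ± 0.22 (adjusted p = 0.00118). Both calls held under all 33 alternatives tried, with changes from -2.11 to -1.39 in the H4 tail deletion and from -1.62 to -0.91 in the H3 double mutant.

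RPL22B was not called in the other 5 mutants. The RPD3 deletion gave signals of 8873 and 8470.4 and the H3 tail deletion 7428 and 5155, with 4915, 5083 and 5662 in the H3 lysine substitution. They were 4639 and 5009.5 in the H4 lysine substitution and 6448 and 6201 in the H4 double mutant. The log2 changes of those groups were 0.26, -0.22, -0.47, -0.58 and -0.19, with adjusted p of 0.477, 0.567, 0.0901, 0.063 and 0.562. The probe set of the A copy, RPL22A, read 44157, 46182 and 51062 in wild type, 46599 and 50684 in the H4 tail deletion and 47111 and 40748 in the H3 double mutant. The A copy overlapped with wild type in both mutants, with log2 changes of 0.05 ± 0.24 (adjusted p = 0.929) and -0.10 ± 0.24 (adjusted p = 0.806).

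RPL15B moved the other way. It encodes the B copy of Rpl15, which lies deep in the RNA core of the large subunit. Its signals were 2011, 3549 and 2823 in wild type. Without RPD3 they were 4813 and 5034, and in the H3 double mutant 5780.2 and 5094. All 4 arrays of those mutants lay above the 3 wild-type arrays. It was the only ribosomal protein probe set called in the RPD3 deletion, with a log2 change of 0.85 ± 0.23 (adjusted p = 0.0243), and its change in the H3 double mutant was 1.00 ± 0.23 (adjusted p = 0.00732). In the RPD3 deletion the call was lost without the first wild-type array, the lowest (adjusted p = 0.0669), without the first array of the mutant (0.0815) or the second (0.148), and after median centring or with chip lot as a block. For the H3 double mutant it was lost without the first array of that mutant (adjusted p = 0.0604) among 33 alternatives. Signals elsewhere were 3501 and 4289.9 in the H3 tail deletion, 3994, 3542 and 3457 in the H3 lysine substitution and 4249.7 and 3102 in the H4 double mutant, none of them called. RPL15A, by contrast, fell in the H3 double mutant from 19605, 26256 and 25444 to 13079 and 14841, a log2 change of -0.76 ± 0.21 (adjusted p = 0.0189). Its call was lost without the second wild-type array (adjusted p = 0.063) or the first array of the mutant (0.116).

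RPL36B encodes a small basic protein of the large subunit. Its probe set, like that of RPL36A, was incompletely unique, and it read 15612, 21681 and 21623 in wild type. It read 11762 and 11121 in the H3 tail deletion, 11904, 12564 and 15407 in the H3 lysine substitution and 11093 and 7925 in the H4 tail deletion. No array of these groups reached the lowest wild-type array, and the log2 changes were -0.76 ± 0.20 (adjusted p = 0.0221), -0.56 ± 0.18 (adjusted p = 0.0367) and -1.05 ± 0.20 (adjusted p = 0.00197). The change in the H3 double mutant was -0.62 ± 0.20 (adjusted p = 0.0408). The call in the H3 tail deletion was lost without wild-type array 2 (adjusted p = 0.0713) or 3 (0.0574) and without either array of the mutant (0.0769 and 0.127). For the H3 lysine substitution it was lost without wild-type array 2 (adjusted p = 0.129) or 3 (0.0899) and without the first (0.124) or second (0.109) array of the mutant. The call in the H3 double mutant held in 19 of 32 alternatives and was lost without wild-type array 2 (adjusted p = 0.12) or 3 (0.0907) or either array of the mutant (0.0791 and 0.206). That of the H4 tail deletion was lost with a day block (0.174) or without the 3 arrays named above (0.0578). RPL36A was called lower in the H4 lysine substitution, at -0.77 ± 0.23 (adjusted p = 0.0227), a call lost without the second wild-type array (adjusted p = 0.0756) or the second array of that mutant (0.212).

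RPL25 encodes Rpl25, which binds ribosomal RNA beside the exit of the nascent chain, and it has no paralogue. Its signals were 22377, 22676 and 28780 in wild type, 16090.3 and 15409 without the H3 tail and 15746 and 15344 without the H4 tail. Both mutants lay below all wild-type arrays, with log2 changes of -0.63 ± 0.17 (adjusted p = 0.0267) and -0.65 ± 0.17 (adjusted p = 0.0135). The first of these calls was lost without wild-type array 3 (adjusted p = 0.0718) or either array of the mutant (0.0827 and 0.132). The second was lost without either array of that mutant (0.0636 and 0.0835).

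RPL31B, the B copy of a protein beside the tunnel exit, was called by 1 of its 3 probe sets, family-marked, with log2 changes of -0.56 ± 0.18 (adjusted p = 0.0298) in the H4 tail deletion, -0.75 ± 0.18 (adjusted p = 0.0118) in the H3 tail deletion and -0.53 ± 0.18 (adjusted p = 0.0447) in the H3 double mutant. Its other probe sets were not called, at -0.25 ± 0.22 (adjusted p = 0.453) and -0.23 ± 0.18 (adjusted p = 0.376) in the H4 tail deletion and -0.47 ± 0.22 (adjusted p = 0.204) and -0.51 ± 0.18 (adjusted p = 0.0748) in the H3 tail deletion. The readings of RPL31B therefore depended on the probe set. The call in the H3 tail deletion was lost without the first array of that mutant (adjusted p = 0.0888), and that in the H4 tail deletion without wild-type array 2 (0.0687) or 3 (0.0507) or either array of the mutant (0.154 and 0.092). The single-copy RPL39, whose product lines the tunnel, changed by -0.69 ± 0.23 (adjusted p = 0.0378) in the H4 tail deletion, a call that held in 20 of 33 alternatives and was lost without either array of the mutant (adjusted p = 0.117 and 0.182) or wild-type array 2 (0.0788) or 3 (0.0819). In all, 9 of 52 large-subunit probe sets were lower in the H4 tail deletion, 7 lower and 2 higher in the H3 double mutant, 4 lower in the H3 tail deletion, 3 in the H4 lysine substitution and 1 in the H3 lysine substitution. Of all tested probe sets 15.1%, 8.13%, 2.98%, 16.5% and 13.7% were lower in that order, with 15.4% higher in the H3 double mutant. The large-subunit share lower was near that of all in the H4 tail deletion and under it in both lysine substitutions.

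RPL7A and RPL7B, which encode the large-subunit protein Rpl7, gave readings that differed between probe sets. An incompletely unique probe set of RPL7B read 12668, 13236 and 1787 on the wild-type arrays, so that array 3 stood far below the others. It read 1393 and 1537 in the H4 lysine substitution, with a log2 change of -2.19 ± 0.70 (adjusted p = 0.0338) that ran from -3.15 to -0.29 over 31 alternatives. Its call held in 23 of them and was lost without the first (adjusted p = 0.108) or second (0.128) wild-type array, without either array of the mutant (0.17 and 0.117), without a filter (0.0746), and with a block for period (0.851) or chip lot (0.741). The family-marked probe set of the same gene read 4432, 5442 and 3808 in wild type and 2398 and 2261 in the H4 lysine substitution, a narrower decrease of -0.95 ± 0.25 (adjusted p = 0.0144). That call was lost without the second wild-type array (adjusted p = 0.0545), without either array of the mutant (0.0796 and 0.0821) and with a block for period (0.223) or chip lot (0.543). Both RPL7B probe sets were called lower in the H4 tail deletion as well. The incompletely unique one changed there by -2.01 ± 0.70 (adjusted p = 0.0471), overlapping with wild type, and the family-marked one by -0.88 ± 0.25 (adjusted p = 0.0196). Of 3 RPL7A probe sets, a dim plain one was higher in both double mutants, at 566 and 725 and 822 and 658 against 373, 422 and 214, with log2 changes of 0.99 ± 0.31 (adjusted p = 0.0342) and 1.19 ± 0.31 (adjusted p = 0.0142). The call in the H3 double mutant was lost without wild-type array 3 (adjusted p = 0.0939) and without either array of the mutant (0.0662 and 0.203), and that in the H4 double mutant without its first array (0.132). The other RPL7A probe sets were not called in either mutant, with log2 changes of -0.18 and -0.48 in the H3 double mutant and 0.12 and -0.39 in the H4 double mutant. A rise of the RPL7A transcript was therefore not shown by all of its probe sets.

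**Figure D3:**
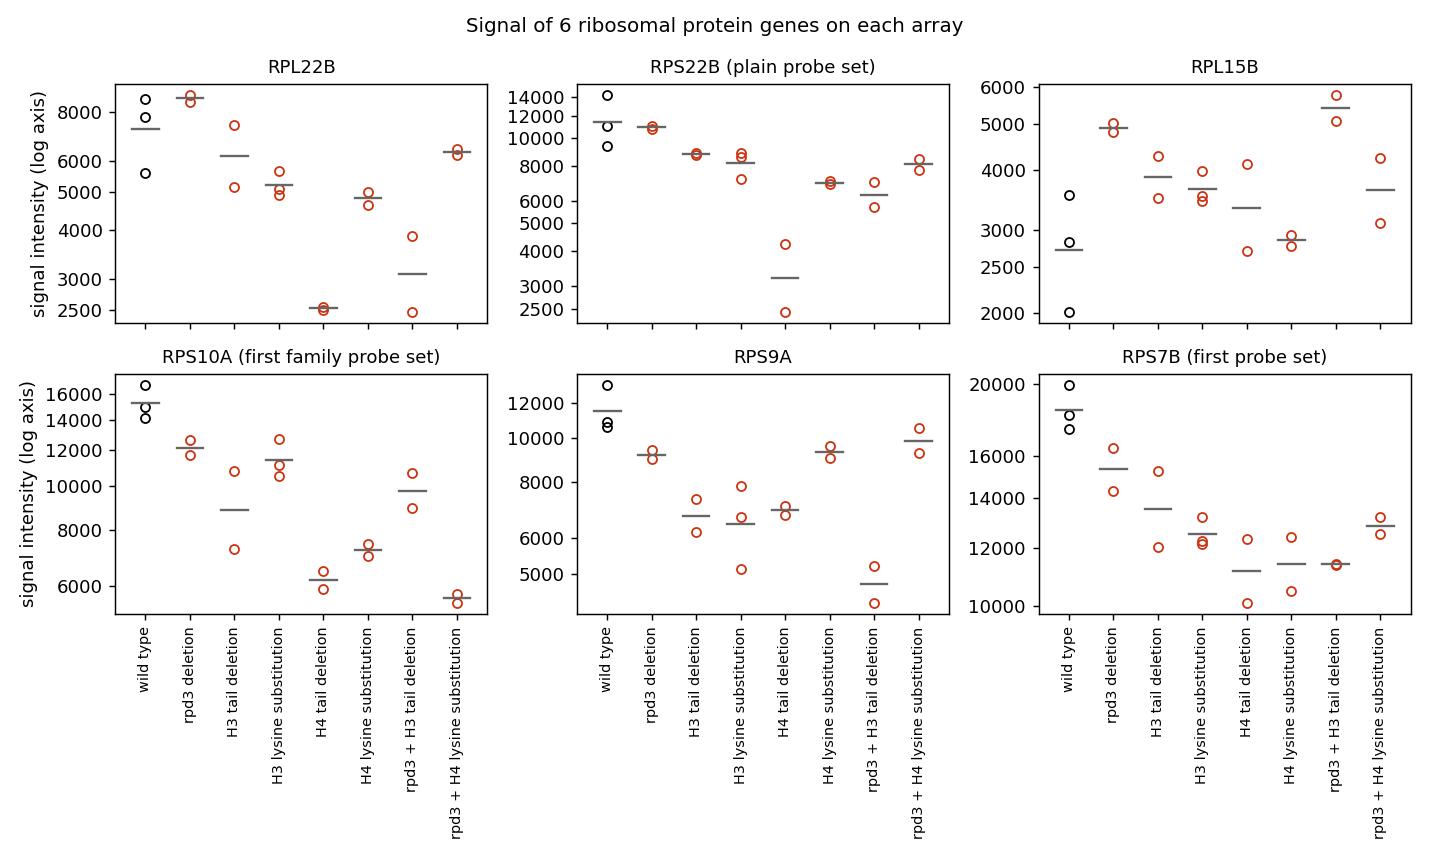
Signal intensity (logarithmic axis, arbitrary units) of 6 ribosomal protein genes on each of the 18 arrays (circles, wild type in black) by genotype, with a line at the mean of each group. The plain probe set of RPS22B is lowest in the H4 tail deletion, RPS9A is lowest in the H3 double mutant, and RPL15B is highest in the H3 double mutant.

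Among small-subunit proteins, RPS22B, the B copy of a protein that binds the central domain of the small-subunit RNA, showed the largest decrease in the H4 tail deletion among probe sets whose arrays did not overlap between groups. Its plain probe set read 11083, 14280.4 and 9361 in wild type and 4231 and 2425 in the H4 tail deletion. The mutant arrays lay below all others of the study, with a log2 change of -1.83 ± 0.22 (adjusted p = 0.000101), or 3.56-fold lower. The call held under all 33 alternatives, with changes from -2.46 to -1.43. The probe sets of the gene that are not plain were lower too, by less: -0.77 ± 0.18 (adjusted p = 0.00566) and -0.88 ± 0.20 (adjusted p = 0.00517), both calls being lost without the second array of the mutant (0.097 and 0.103). The plain one was also lower in the H4 lysine substitution (6902 and 7037), by -0.71 ± 0.22 (adjusted p = 0.0297), and in the H3 double mutant (7008 and 5701), by -0.85 ± 0.22 (adjusted p = 0.013). The call in the H4 lysine substitution was lost without either of its arrays (adjusted p = 0.15 and 0.109) and without the first (0.0504) or second (0.109) wild-type array. That in the H3 double mutant was lost without its second array (adjusted p = 0.112).

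RPS9A encodes the A copy of Rps9, which lies at the entry of the mRNA channel and bears on the accuracy of translation. Its family-marked probe set read 10887, 13150.4 and 10583 in wild type, 6200.4 and 7320.2 in the H3 tail deletion, 5130.2, 6680.5 and 7839 in the H3 lysine substitution and 5214 and 4308 in the H3 double mutant. All 3 H3 mutants lay below every wild-type array, and the H3 double mutant lay lowest, with log2 changes of -0.77 ± 0.18 (adjusted p = 0.0105), -0.83 ± 0.16 (adjusted p = 0.00228) and -1.28 ± 0.18 (adjusted p = 0.000214). The call of the H3 double mutant held under all 32 alternatives, and that of the H3 tail deletion was lost without its first array (adjusted p = 0.0945). In the H4 tail deletion the signals were 7063 and 6770.1 and the change -0.73 ± 0.18 (adjusted p = 0.00798), a call lost without the second array (0.0631). The H4 lysine substitution and the H4 double mutant were not called, at 9064 and 9606 and 9278 and 10548.

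RPS10A, the A copy of a protein of the head of the small subunit, was lower in 5 mutants by 1 of its 2 family-marked probe sets. That probe set read 15006, 16766 and 14174 in wild type, 6459 and 5890.3 in the H4 tail deletion, 7412 and 6984 in the H4 lysine substitution and 5748 and 5498 in the H4 double mutant. Those 3 H4 mutants lay well below all wild-type arrays, with log2 changes of -1.31 ± 0.17 (adjusted p = 0.00016), -1.09 ± 0.17 (adjusted p = 0.000819) and -1.44 ± 0.17 (adjusted p = 0.000144). The H3 mutants were lower by less, at -0.79 ± 0.17 (adjusted p = 0.00708) for the tail deletion and -0.65 ± 0.17 (adjusted p = 0.0137) for the double mutant. The other RPS10A probe set read 20800.4, 22126 and 26264 in wild type and 21478 and 25294 in the H4 double mutant and was called in the H4 tail deletion alone, at -0.73 ± 0.22 (adjusted p = 0.0277). The readings of RPS10A in the H4 lysine substitution and in the H4 double mutant therefore depended on which probe set was read. The calls in the H3 tail deletion and in the H3 double mutant were each lost without the first array of that mutant (adjusted p = 0.0952 and 0.109). That of the other RPS10A probe set was lost without wild-type array 2 (adjusted p = 0.0529) or 3 (0.064) or either array of the H4 tail deletion (0.0898 and 0.156).

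RPS10B had 2 probe sets of the family kind. One of them read 9241 and 8258 in the H4 tail deletion against 13774, 15510.1 and 20391 in wild type, with a log2 change of -0.90 ± 0.21 (adjusted p = 0.0067). Its call was lost without the second array of the mutant (adjusted p = 0.0687). The other lay at or under the floor on 16 of 18 arrays, the third wild-type array among them. It passed the filter through 2 wild-type arrays alone, so that its call as lower was set by the floor. That call, in 5 mutants, is held in the counts of lower probe sets given here, those of the small subunit and of B copies among them. It is a bound, is given no fold change and is not read as a decrease.

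RPS7B encodes the B copy of Rps7, a protein of the small subunit that is marked by ubiquitin on stalled ribosomes, and both of its plain probe sets gave like readings. One read 18147, 19944 and 17373 in wild type and 10102 and 12319.7 in the H4 tail deletion. The other read 17408, 19014 and 22121 in wild type and 10632 and 10598 in the H4 tail deletion. The arrays of every called group lay below all wild-type arrays, and both probe sets were called in 5 mutants, the H3 and H4 lysine substitutions, the H4 tail deletion and both double mutants. Of the log2 changes of the first probe set, that in the H4 tail deletion was -0.73 ± 0.15 (adjusted p = 0.0032), in the H3 double mutant -0.70 ± 0.15 (adjusted p = 0.00468) and in the H4 lysine substitution -0.69 ± 0.15 (adjusted p = 0.00486). In the H3 lysine substitution it was -0.56 ± 0.14 (adjusted p = 0.00885) and in the H4 double mutant -0.52 ± 0.15 (adjusted p = 0.0229). The second probe set was called in the H3 tail deletion as well, at -0.58 ± 0.16 (adjusted p = 0.0301), a call lost without wild-type array 2 (adjusted p = 0.0598) or 3 (0.0789) and without either array of the mutant (0.0502 and 0.209). In the H4 double mutant both calls were lost without the second wild-type array (adjusted p = 0.0707 and 0.0775) and without either array of the mutant (0.14 and 0.0807 for the first probe set, 0.241 and 0.0949 for the second), and that of the second probe set held in 19 of 32 alternatives. The call of the first probe set in the H4 lysine substitution was lost without its second array (adjusted p = 0.0553). In the H3 lysine substitution that of the second was lost without wild-type array 2 (adjusted p = 0.0788) or 3 (0.106) and without the first (0.115) or second (0.138) array of the mutant. The calls of the first probe set in the H4 tail deletion and in the H3 double mutant held under all 33 alternatives.

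Further small-subunit genes were called lower. RPS28A encodes the A copy of a protein at the exit of the mRNA channel. Its family-marked probe set was lower in the H4 tail deletion by -0.63 ± 0.17 (adjusted p = 0.0135), less than its incompletely unique probe set. The latter read 4945, 7823 and 5583 in wild type, 3090.1 and 2782 in the H4 tail deletion and 2271 and 3199 in the H3 double mutant. Both mutants lay below wild type, with log2 changes of -1.03 ± 0.26 (adjusted p = 0.00906) and -1.15 ± 0.26 (adjusted p = 0.00523); the former was lost without the second array of the mutant (adjusted p = 0.0785) and the latter without the first (0.0699). RPS26B, whose product also lies at the mRNA exit, changed by -0.77 ± 0.23 (adjusted p = 0.0263) in the H3 double mutant and was lost there without wild-type array 2 (adjusted p = 0.083) or 3 (0.062) or the second array of the mutant (0.207). RPS27A changed by -0.61 ± 0.18 (adjusted p = 0.0257) in the H3 lysine substitution, -0.60 ± 0.20 (adjusted p = 0.045) in the H4 lysine substitution and -0.74 ± 0.20 (adjusted p = 0.018) in the H3 double mutant. The call of the H3 lysine substitution was lost without its first (adjusted p = 0.0968) or second (0.101) array or the second of wild type (0.0774), and that of the H3 double mutant without its second array (0.214). The call of the H4 lysine substitution held in 13 of 32 alternatives and was lost without any 1 of the 5 arrays compared (adjusted p from 0.0597 to 0.258).

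The 52 calls of named genes that were refitted under the alternatives, RPL22B and RPL7B between mutants among them, were not all kept under the blocks. Wild-type arrays 2 and 3 and array 2 of the H4 tail deletion were each alone on their sampling day. A day block therefore sets contrasts against wild-type array 1 alone and reads the H4 tail deletion from its first array. A loss under it may come from the fewer arrays, which was not tested. With the sampling day as a block 25 of 36 calls were lost. Those of the H4 tail deletion were RPL25, RPL31B, RPL36B, RPL39, RPS9A, RPS10A by both probe sets, RPS10B, RPS26B, RPS28A and RPS22B by the probe sets that are not plain. In the H3 double mutant they were RPL7A, RPL15A, RPL36B, RPS10A, RPS26B and RPS28A, and in the H3 tail deletion RPL25, RPL31B, RPL36B, RPS7B, RPS9A and RPS10A, beside the interaction of RPD3 loss with the H3 tail deletion for RPL22B. With the chip lot as a block 31 of 52 were lost, among them every one of those followed in the lysine substitutions and in the H4 double mutant against wild type. With the sampling period 24 of 52 were lost, after median centring 19, and without the 3 arrays whose headers name another strain 25.

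By role, 16 of 47 small-subunit probe sets were lower in the H4 tail deletion, or 34.0%, beside 9 of 52 for the large subunit, against 15.1% of all tested probe sets. The medians were -0.36 and -0.26, and the difference between the subunits was not tested. These are counts of probe sets and not of genes. Among the 16, RPS7B, RPS9B, RPS10A, RPS10B, RPS22B and RPS28A each hold several, as does RPL7B among the 9. Lower small-subunit probe sets numbered 12 in the H3 double mutant, in the H4 lysine substitution 6, in the H3 lysine substitution 5, in the H4 double mutant 4 and in the H3 tail deletion 3. Of all tested probe sets 8.13%, 16.5%, 13.7%, 12.9% and 2.98% were lower, in that order. The small-subunit shares were under those of all in both lysine substitutions and in the H4 double mutant. Apart from that of the H3 tail deletion, these small-subunit counts include the RPS10B probe set at the floor, as does that of the H4 tail deletion.

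None of the 6 probe sets of the stalk genes was called in any mutant, as was so for 72 of all 105. RPP0 encodes the base of the stalk and RPP1A, RPP1B, RPP2A and RPP2B the acidic P1 and P2 proteins that bind to it and recruit translation factors. RPP0 read 27568, 28483 and 45586 in wild type, 34708 and 40271 in the H4 tail deletion and 46040.3 and 48114 in the H4 double mutant. The arrays of the H4 double mutant lay above those of wild type by little, with a log2 change of 0.51 ± 0.29 (adjusted p = 0.211). RPP1A gave -0.59 ± 0.21 (adjusted p = 0.0903) in the H3 tail deletion and 0.51 ± 0.21 (adjusted p = 0.102) in the H4 lysine substitution. The probe sets of RPP1B gave 0.51 ± 0.21 (adjusted p = 0.0988) and 0.67 ± 0.33 (adjusted p = 0.161) in the H4 double mutant. RPP2A gave -0.47 ± 0.27 (adjusted p = 0.286) in the RPD3 deletion and -0.47 ± 0.27 (adjusted p = 0.241) in the H3 double mutant. RPP2B gave 0.28 ± 0.22 (adjusted p = 0.375) in the H4 double mutant. The median over the 6 stalk probe sets was 0.01 in the H4 tail deletion, 0.26 in the H4 lysine substitution and 0.45 in the H4 double mutant, with all 6 changes positive in the latter groups, and -0.17, -0.26, -0.16 and -0.11 in the RPD3 deletion, the H3 tail deletion, the H3 lysine substitution and the H3 double mutant. The stalk median of the H4 tail deletion changed sign with scaling, at 0.09 after median centring and -0.08 after quantile normalisation, and the other 6 kept theirs.

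The A and B copies of a pair make near-identical proteins from separate promoters, and 29 pairs could be compared through the difference between the changes of both copies. No test of this difference was run, since the protein sequences needed to define a background of other duplicated genes were not given, and the pairs below were chosen after their values were seen. In the H4 tail deletion 18 of 42 B probe sets and 5 of 40 A probe sets were called lower, or 42.9% and 12.5%, against 15.1% of all tested probe sets. The share of the A copies was thus under that of all. Of 17 probe sets of genes with no such copy, 2 were lower. Some genes hold several of the called B probe sets, among them RPS22B, RPS7B, RPS9B and RPL7B. The B count also includes the RPS10B probe set at the floor. The difference between A and B copies was not tested. Over the 29 pairs, only the B copy was lower in 8, only the A copy in 1 and both in 2. The median of the A change minus the B change was 0.13, positive in 19 pairs and negative in 10. The A and B counts moved with the settings, to 0 and 6 of 16 each among plain probe sets, 0 and 7 with a day block, 1 and 6 without the 3 arrays whose headers name another strain, and 12 for the A copies after quantile normalisation.

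The H3 double mutant had 5 pairs with only the A copy lower and 7 with only the B copy lower. In the H3 tail deletion these counts were 1 and 3, in the H3 lysine substitution 2 and 2, in the H4 lysine substitution 2 and 3 and in the H4 double mutant 0 and 1. The widest pair differences in the H4 tail deletion came from RPS22, RPL7 and RPL22, and in the H3 double mutant from RPL15. For RPS22 the A change minus the B change in the H4 tail deletion was 1.16 and 2.41 on the 2 arrays, against -0.37 to 0.56 in wild type, with a pooled standard deviation within groups of 0.428. RPS22A itself read 47624 and 64997 in that mutant against 48879.8, 55875 and 69875 in wild type, overlapping, with a change of -0.05.

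For RPL22 the difference was 1.52 and 1.61 in the H4 tail deletion and 0.91 and 1.34 in the H3 double mutant, against -0.29 to 0.49 in wild type (pooled standard deviation 0.269). For RPL15 the sign was opposite, since the A copy fell and the B copy rose: the difference was -1.94 and -1.57 in the H3 double mutant against -0.23 to 0.17 in wild type (pooled standard deviation 0.342). Its mean was -0.90 in the RPD3 deletion, -0.77 in the H3 tail deletion and -0.63 in the H3 lysine substitution. RPS7 gave 0.83 in the H4 tail deletion, 0.76 in the H4 lysine substitution and 1.00 in the H4 double mutant (pooled standard deviation 0.256). RPS26 gave 0.98 in the H4 tail deletion and 0.87 in the H3 double mutant (0.267). The sign was negative in other pairs: RPS9 gave -0.87 in the H3 double mutant and -0.78 in the H3 lysine substitution (0.252), and RPS27 gave -0.81 in the H3 double mutant, -0.70 in the H4 lysine substitution and -0.73 in the H4 double mutant (0.172). RPL7 gave 1.73 in the H4 tail deletion, 1.64 in the H4 lysine substitution, 1.51 in the H3 double mutant and 1.04 in the H4 double mutant (0.393 being the pooled standard deviation), measured on the dim RPL7A probe set that its other probe sets did not follow.

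**Figure D4:**
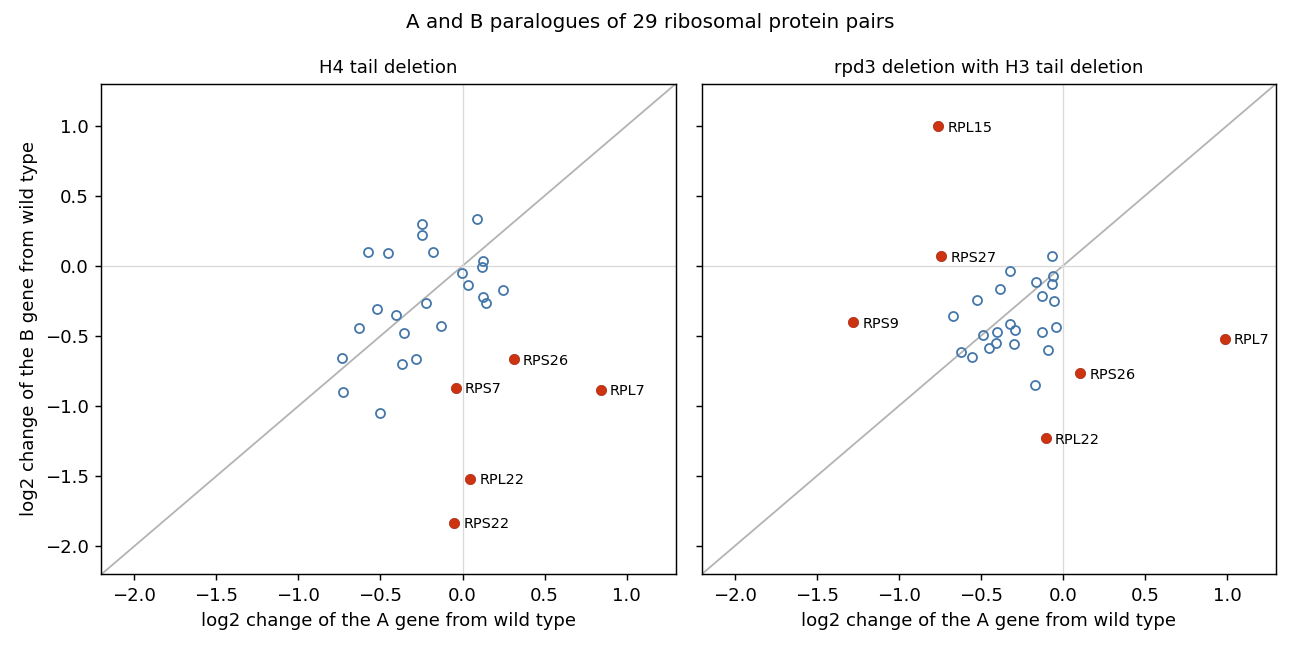
Log2 change from wild type of the A gene (horizontal axis) and of the B gene (vertical axis) for 29 ribosomal protein pairs in the H4 tail deletion and in the H3 double mutant, with a diagonal where both changes are equal and filled, named points where they differ by more than 0.8. RPS22 and RPL22 lie far below the diagonal in the H4 tail deletion, with differences of 1.782 and 1.566, and RPL15 lies farthest above it in the H3 double mutant, at -1.755.

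The double mutants were next compared with the histone mutants they were built on, to read the effect of losing RPD3 in that background. Between the H3 double mutant and the H3 tail deletion 0 of 105 ribosomal protein probe sets were called by limma, with 5 at an unadjusted p under 0.05, and 1.34% of all probe sets were called. RPL22B came nearest, with signals of 3854 and 2463 in the double mutant beside 7428 and 5155 without the H3 tail alone, a log2 difference of -1.01 ± 0.24 (adjusted p = 0.0552). Losing RPD3 from wild type had moved RPL22B by 0.26. The difference between these effects was tested as an interaction and was called for RPL22B, at -1.27 ± 0.32 (adjusted p = 0.0376), with a 95% confidence interval from -1.96 to -0.58. It was the only ribosomal protein probe set called in that interaction (0.952%, with 5.18% of all probe sets called and 3.92% called lower). The call held in 12 of 33 alternatives, where the value ran from -1.59 to -0.88 and adjusted p from 0.0111 to 0.163. The RPD3 deletion, the H3 tail deletion and the H3 double mutant share sampling days, and the call was lost with the day as a block (-0.96, adjusted p = 0.0974), as with the period (-1.09, 0.0585), the chip lot (-0.88, 0.0885) or the replicate number (-1.21, 0.0667). Without the 3 arrays whose headers name another strain it was -1.21 (adjusted p = 0.128), and with the actin ratio as covariate -1.01 (0.103). It was also lost without wild-type array 3 (-1.09, adjusted p = 0.0583), the first (-1.24, 0.0678) or second (-1.30, 0.108) array of the RPD3 deletion, the first of the H3 tail deletion (-1.01, 0.123) or the second of the double mutant (-0.95, 0.163).

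Between the H4 double mutant and the H4 lysine substitution 1 of 105 was called (0.952%, with 3.41% of all called and 2.17% called higher). This was the family-marked probe set of RPL7B, at 2398 and 2261 in the H4 lysine substitution and 4086 and 6105 in the double mutant. The arrays did not overlap and the log2 difference was 1.10 ± 0.28 (adjusted p = 0.0473). The call held in 12 of 32 alternatives and was lost without any 1 of the 4 arrays compared (adjusted p from 0.0758 to 0.273). The other RPL7B probe set differed by 0.51 ± 0.77 (adjusted p = 0.819). Over the 105 probe sets the median difference was 0.24, with 97 above 0 and the RPS10B probe set at the floor at 0, against 0.07 over all probe sets. In the interaction of RPD3 loss with the H4 lysine substitution 0 were called by limma (3 at an unadjusted p under 0.05, with 3.16% of all probe sets called), with a median of 0.45 that was 0.17 after quantile normalisation. Both groups of H4 lysine mutants were sampled on a single day that no other group shared, so that their contrasts with wild type and day cannot be told apart.

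Beside these values, the transcripts of proteins that escort ribosomal proteins changed more widely. Of 12 genes for dedicated chaperones and importers, all 12 were lower in the H4 tail deletion and all 12 in the H4 lysine substitution, with median log2 changes of -1.21 and -1.24. In the H3 lysine substitution 8 were lower, in each double mutant 3, in the H3 tail deletion 1 (TSR2) and in the RPD3 deletion 0. The shares of all tested probe sets called lower were 15.1% in the H4 tail deletion, 16.5% in the H4 lysine substitution and 13.7% in the H3 lysine substitution, then 8.13% and 12.9% in the H3 and H4 double mutants, 2.98% in the H3 tail deletion and 4.13% in the RPD3 deletion. RRB1, the chaperone of Rpl3, read 3705, 5049 and 2800 in wild type and 1391 and 1536 in the H4 tail deletion. Its arrays did not overlap with wild type and its log2 change was -1.36 ± 0.19 (adjusted p = 0.000273), while RPL3 itself changed by -0.52 ± 0.24 (adjusted p = 0.133). SQT1, the chaperone of Rpl10, changed by -1.28 ± 0.25 (adjusted p = 0.00197) and RPL10 by -0.35 ± 0.26 (adjusted p = 0.348). SYO1, which imports Rpl5 together with Rpl11, changed by -1.48 ± 0.32 (adjusted p = 0.0043) and RPL5 by -0.10 ± 0.22 (adjusted p = 0.802). YAR1, the chaperone of Rps3, changed by -0.76 ± 0.22 (adjusted p = 0.0188) and RPS3 by 0.02 ± 0.21 (adjusted p = 0.975). TSR2, the chaperone of Rps26, changed by -1.14 ± 0.32 (adjusted p = 0.0185) and its client gene RPS26B by -0.67 ± 0.23 (adjusted p = 0.0432) (held in 16 of 33 alternatives), while neither RPS26A probe set was called (0.31 and 0.10).

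Ribosome assembly factors were lower as well. Of 78 probe sets for 64 such genes, none was higher and 66 were lower in the H4 tail deletion, 62 in the H4 lysine substitution, 67 in the H3 lysine substitution, 39 in the H3 double mutant, 31 in the H4 double mutant, 19 in the RPD3 deletion and 16 in the H3 tail deletion. These were 84.6%, 79.5%, 85.9%, 50%, 39.7%, 24.4% and 20.5% of the 78, against 15.1%, 16.5%, 13.7%, 8.13%, 12.9%, 4.13% and 2.98% of all probe sets called lower. Their median log2 changes were -1.18, -1.16, -0.96, -0.73, -0.59, -0.47 and -0.52 in that order. Their sign did not depend on scaling in any mutant. Between the H4 double mutant and the H4 lysine substitution 9 of them were higher and 0 lower, with a median of 0.57, and in the interaction with the H4 lysine substitution 17 were higher, with a median of 0.99 and 0.968% of all probe sets called higher. On single arrays the assembly factor median lay between -0.26 and 0.36 in wild type and between -1.25 and -0.46 over all mutant arrays, so that no mutant array overlapped with wild type.

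Mitochondrial ribosomal proteins, which share no subunit with the cytosolic ribosome, were higher where called in 5 mutants. Of 73 probe sets, 12 were higher in the RPD3 deletion, 7 in the H3 tail deletion, 8 in the H3 lysine substitution, 19 in the H4 tail deletion and 10 in the H4 lysine substitution, with 0 lower in each. These were 16.4%, 9.59%, 11%, 26% and 13.7% of the 73, against 11.2%, 10.7%, 11.8%, 12.3% and 8.69% of all tested probe sets, so that the shares in the H3 tail deletion and the H3 lysine substitution were no higher than that of all. The H3 double mutant had 2 higher and 6 lower, beside 15.4% of all higher and 8.13% lower. The H4 double mutant had 4 higher and 5 lower, beside 11.6% of all higher and 12.9% lower. Mitochondrial ribosomal protein probe sets were thus lower at a share near that of all in the H3 double mutant and under it in the H4 double mutant. Their median log2 change was largest in the H4 tail deletion, at 0.39, and was 0.05 in the H3 double mutant, where it was negative (-0.16 and -0.10) under the other scalings.

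Genes that regulate ribosomal protein transcription were tested as 38 probe sets of 27 genes. The list mixes activators with genes that act against growth signals, so its counts have no single sense. It also names UTP22, which the list of assembly factors names too. BCY1, which encodes the inhibitory subunit of protein kinase A, was called higher in all 7 mutants. It read 2154, 1466 and 2286 in wild type and 7730 and 5973 in the RPD3 deletion, without overlap, a log2 change of 1.81 ± 0.21 (adjusted p = 9.65e-05). Its change was smallest in the H3 lysine substitution, at 0.77 ± 0.18 (adjusted p = 0.00869). TPK2, a catalytic subunit of the same kinase, was higher in 6 mutants, by 1.42 ± 0.24 (adjusted p = 0.00135) in the RPD3 deletion. YAK1, a kinase that acts against growth signals, was also higher in 6 mutants by at least 1 of its 3 probe sets.

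Activators of ribosomal protein genes were lower in some mutants. SFP1 changed by -1.30 ± 0.30 (adjusted p = 0.0106) in the RPD3 deletion, -1.06 ± 0.27 (adjusted p = 0.0121) in the H3 lysine substitution and -0.93 ± 0.30 (adjusted p = 0.0404) in the H3 double mutant. RAP1 was called in the H3 lysine substitution alone, at -1.46 ± 0.27 (adjusted p = 0.00182). IFH1, the coactivator that binds Fhl1, changed by -0.92 ± 0.26 (adjusted p = 0.0211) in the H3 lysine substitution and -0.996 ± 0.295 (adjusted p = 0.0243) in the H4 lysine substitution. FHL1 was called in none of the 7 mutants. In the H4 tail deletion, where ribosomal protein probe sets were most often lower, SFP1, RAP1, IFH1 and FHL1 were not called, with log2 changes of -0.24 ± 0.30 (adjusted p = 0.608), -0.77 ± 0.30 (adjusted p = 0.0741), -0.35 ± 0.29 (adjusted p = 0.416) and -0.38 ± 0.18 (adjusted p = 0.133). ABF1, a general regulatory factor, was called lower in 6 mutants, with -1.11 ± 0.37 (adjusted p = 0.0409) in the H4 tail deletion. Over the list 4 probe sets were higher and 5 lower in the RPD3 deletion, 5 and 1 in the H3 tail deletion, 4 and 12 in the H3 lysine substitution, 5 and 6 in the H4 tail deletion, 1 and 7 in the H4 lysine substitution, 4 and 8 in the H3 double mutant and 6 and 6 in the H4 double mutant. As shares of the 38, the higher ones ran from 2.63% to 15.8% and the lower ones from 2.63% to 31.6%. Some lay near the shares of all probe sets, such as 10.5% higher against 11.2% in the RPD3 deletion, 2.63% lower against 2.98% in the H3 tail deletion and 15.8% lower against 15.1% in the H4 tail deletion. The H3 lysine substitution had 31.6% lower against 13.7% of all.

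Translation factors were tested as 27 probe sets of 24 genes. Of these, 10 were lower in the H3 lysine substitution, 9 in each double mutant, 8 in each H4 single mutant, 3 in the RPD3 deletion and 2 in the H3 tail deletion, and up to 2 were higher in any mutant. The lower ones were 37.0% of the 27 in the H3 lysine substitution against 13.7% of all probe sets, 33.3% in each double mutant against 8.13% and 12.9%, and 29.6% in each H4 single mutant against 15.1% and 16.5%. They were 11.1% in the RPD3 deletion against 4.13% and 7.41% in the H3 tail deletion against 2.98%. RPG1, which encodes a subunit of initiation factor eIF3, was among the lower ones in all 7 mutants. Of 8 probe sets for factors that act on the nascent chain, 3 were lower in each H4 single mutant, 2 in the H3 tail deletion, 1 in the H3 lysine substitution and in the H3 double mutant, and 0 in the RPD3 deletion and the H4 double mutant. At 8 probe sets, shares against those of all tested are not read.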

How the data were processed

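Total RNA from yeast in 8 genotype groups was measured on 18 one-colour arrays. The deposited value table holds linear intensity values, 1 column per array, which the authors had scaled to a common 2% trimmed mean (1501.0 to 1501.8 in the values, medians 387.1 to 545.0). For the probe-level summary and the genome build of the annotation no label or header names a method. The deposited array settings, per the file headers, are other text and gave chip lots for 17 of 18 arrays. Intensities were rescaled to that trimmed mean, raised to a floor at the pooled 25th percentile (140.2), log2 transformed and kept where above the floor on at least 2 arrays. Of 9335 probe sets, 60 were controls and 7851 were tested. Of the non-control probe sets 6504 named 1 gene, all of them matched to the reference gene table, 328 named several and 2443 named none.

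All 18 arrays entered 1 limma fit (limma 3.58.1, R 4.3.3) with group means as coefficients and trended variances (10 residual and 3.76 prior degrees of freedom). Tests were two-sided, with Benjamini-Hochberg adjustment within each contrast over all tested probe sets at 0.05. Errors of log2 changes are limma standard errors. The number of arrays limits the precision of every value. The fit was tested on simulated data. Members and gene lists were chosen with earlier results of these data known. Named genes were, per contrast with wild type, the 6 largest rises and falls among called probe sets whose arrays did not overlap, the stalk genes, the members at the floor, and called genes of the lists. Others, among them RPL3, RPL5, RPL10, RPS3, RPL22A, RPS22A, RPL39 and the uncalled values of named genes, were chosen after their values were seen. Alternatives covered scaling, floor, filter, probe set kind, variance trend, blocks for day, sampling period, chip lot and replicate number, the actin ratio as covariate, and leaving out arrays.

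Same-numbered arrays of the RPD3 deletion, the H3 tail deletion and the H3 double mutant share a sampling day per the labels. Over 7851 probe sets, deviations from group means correlated at 0.342 between the RPD3 deletion and the H3 tail deletion. The value was -0.047 between the RPD3 deletion and the H3 double mutant and 0.283 between the H3 tail deletion and the H3 double mutant. Over the ribosomal protein probe sets alone the values were 0.016, 0.253 and 0.311 in that order.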

Additional observations from a re-analysis of the deposited data

Results flagged for a closer look

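In the main fit the effect of losing RPD3 on RPL22B was called different with and without the H3 tail, a call that most alternatives lost. In the presence of the tail the RPD3 deletion changed RPL22B by 0.26 on the log2 scale (standard error 0.22, limma adjusted p = 0.477). In the H3 tail deletion the change was -1.01 (standard error 0.24, limma adjusted p = 0.0552). Neither change was called. The difference between these effects, tested as an interaction in limma, was -1.269, with a standard error of 0.32 and adjusted p = 0.0376. Both arrays of the double mutant lay below both arrays of the H3 tail deletion, and both arrays of the RPD3 deletion lay above 2 of the 3 wild-type arrays. Adjusted p ran from 0.0111 to 0.163 over 33 alternatives and stayed under the threshold in 12. The groups share sampling days, and with the day as a block the value was -0.956 (adjusted p = 0.0974). No group held 4 or more arrays, so that no single array was tested for standing apart.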

How the results depend on the processing

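The 52 called values of named genes kept their direction in all 1675 alternative fits and their call in 1378. RPL22B and RPS7B (first probe set) in the H4 tail deletion and in the H3 double mutant, RPS22B (plain) in the H4 tail deletion and RPS9A in the H3 double mutant kept it in every one. Counts of called ribosomal protein probe sets moved more, and beyond the construction of each setting the causes were not tested. They are given below where they moved by over 1.5 times, as main count and then alternatives, and medians where they moved by more than 0.205 on the log2 scale.

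In the RPD3 deletion the count of 1 became 2 after quantile normalisation, with a day, period or replicate block, 3 with a lot block and 5 with the actin ratio as covariate. In the H3 tail deletion 7 became 11 (quantile), 2 (plain probe sets), 1 (day), 4 (period), 23 (actin) and 1 without the 3 arrays whose headers name another strain. In the H3 lysine substitution 6 became 2 after median centring, 16 (quantile), 3 (plain), 0 (period), 0 (lot) and 11 (without the 3 arrays). In the H4 tail deletion 25 became 41 (quantile), 8 (plain), 7 (day) and 7 (without the 3 arrays). In the H4 lysine substitution 9 became 4 (median), 25 (quantile), 4 (plain), 3 (period) and 0 (lot). In the H3 double mutant 21 became 11 (plain), 9 (day), 13 (period) and 7 (without the 3 arrays). In the H4 double mutant 5 became 3 (median), 8 (quantile), 3 (plain), 2 (period), 0 (lot), 9 (actin) and 3 (without the 3 arrays).

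Between the H3 double mutant and the H3 tail deletion 0 became 1 (quantile, plain, day and actin) and 2 (period and lot). Between the H4 mutants 1 became 0 (median, quantile, an offset of 50 in place of the floor, a floor at the 10th percentile, no filter, plain, no variance trend, replicate block, without the 3 arrays) and 2 (day and lot). In the interaction with the H3 tail deletion 1 became 0 (median, no filter, replicate block, actin, without the 3 arrays) and 2 (quantile), and in that with the H4 lysine substitution 0 became 2 (day and lot) and 1 (period). The A copies lower in the H4 tail deletion, 5, became 3 (median), 12 (quantile), 0 (plain), 0 (day), 3 (lot) and 1 (without the 3 arrays), and the B copies, 18, became 6 (plain), 7 (day) and 6 (without the 3 arrays). These A and B counts were added after the data were seen.

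Medians moved to -0.361 and -0.268 with a period block in the H3 and H4 lysine substitutions, which sets them against the third wild-type array alone. With the actin ratio they moved to -0.591 in the H3 tail deletion, -0.47 in the RPD3 deletion, -0.558 in the H3 double mutant, and 0.522 and 0.778 in the interactions with H3 and H4. The median was -0.123 in the H3 tail deletion without the 3 arrays and -0.538 in the H3 double mutant after median centring. After quantile normalisation it was -0.071 in the H4 double mutant and 0.021 and 0.168 in the interactions.

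Leaving out each array in turn gave counts of 0 to 2 in the RPD3 deletion, 3 to 11 in the H3 tail deletion, 2 to 10 in the H3 lysine substitution, 8 to 26 in the H4 tail deletion, 1 to 12 in the H4 lysine substitution, 7 to 23 in the H3 double mutant and 1 to 10 in the H4 double mutant. They were 0 to 2 between the H3 mutants, 0 to 1 between the H4 mutants and 0 to 1 in each interaction. A copies ranged from 1 to 7 and B copies from 7 to 18. Medians ranged from -0.601 to -0.123 in the H3 tail deletion, from -0.018 to 0.493 in the interaction with H3 and from -0.23 to 0.297 between the H3 mutants.

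The replicate number as a block marks the sampling day only for the RPD3 deletion, the H3 tail deletion and the H3 double mutant. With that replicate block the counts were 5 in the H3 tail deletion, 7 in the H3 lysine substitution, 23 in the H4 tail deletion, 10 in the H4 lysine substitution and 14 in the H3 double mutant, and 20 in the H4 double mutant (16 higher, 4 lower). The day block could not be fitted for the contrasts of wild type with the lysine substitutions and with the H4 double mutant. The planned test of paralogue pairs and its alternatives were not run, since protein sequences were not given. With 2 or 3 arrays a group, a value that misses the threshold is not shown to be equal.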

Other observations

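The 59 probe sets that name a ribosomal protein gene together with other genes, in every called case both copies of a pair, were not members and were read apart. Against wild type 0 of them were called in the RPD3 deletion, 2 in the H3 tail deletion, 1 in the H3 lysine substitution, 6 in the H4 tail deletion, 0 in the H4 lysine substitution, 1 in the H3 double mutant and 2 in the H4 double mutant. In the H4 tail deletion all 6 were lower, or 10.2% of the 59 against 15.1% of all tested probe sets called lower. In each mutant the share of the 59 called was under that of all tested probe sets called in either direction, which ran from 13.6% to 27.3%. A probe set of RPS16A and RPS16B, which encode a protein close to the decoding site, changed by -2.10 ± 0.41 (standard error, adjusted p = 0.00213), and another of the same pair by -0.58. The probe set of RPL41A and RPL41B, which encode the smallest ribosomal protein, changed by -1.89 ± 0.51 (adjusted p = 0.0134) in the H4 tail deletion and by -1.47 in the H4 double mutant. The probe set of the RPL40 genes, which encode a fusion of ubiquitin and a large-subunit protein, was higher in the H4 double mutant, by 0.61.

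The share of the summed signal of each array that the 105 probe sets took was 12.5%, 13.6% and 15.3% on the wild-type arrays. Over all arrays it ran from 9.98% on the second array of the H3 tail deletion to 15.3% on the second array of the H4 double mutant.

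Of 15 probe sets for mating type genes, haploid genes and RPD3, 11 were called lower in the H4 tail deletion, 10 in each double mutant, 7 in each lysine substitution, 6 in the RPD3 deletion and 5 in the H3 tail deletion, and at most 1 was higher in any mutant. The lower ones were 73.3% of the 15 in the H4 tail deletion against 15.1% of all tested probe sets, 66.7% in the H3 and H4 double mutants against 8.13% and 12.9%, and 46.7% in the H3 and H4 lysine substitutions against 13.7% and 16.5%. They were 40% in the RPD3 deletion against 4.13% and 33.3% in the H3 tail deletion against 2.98%. The list holds RPD3 itself, which the RPD3 deletion and both double mutants lack. A lower call of RPD3 in those groups is set by the genotype and says nothing of the mating type or haploid genes. MF(ALPHA)1, which encodes the pheromone of alpha cells, read 700.1 and 602.8 in the H4 tail deletion against 19529.6, 23840.1 and 40152.2 in wild type. STE2, the receptor that marks cells of the other mating type, read at most 106.4 on any array, under the floor. Whether this state of the cells bears on the ribosomal protein decreases was not tested.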
